A study of Homo sapiens with 9 samples.

Results

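The protein genes of the cytosolic ribosome were followed across 9 RNA sequencing libraries labelled MDA-MB-231, an established cell line from a triple-negative breast cancer. Members were the genes whose symbol begins with RPL or RPS and whose gene name begins with "ribosomal protein", leaving out pseudogenes, the ribosomal protein kinases and the Y-linked copies of 1 subunit. This gave 86 of the 17911 genes in the count table. By symbol, 53 were counted to the large (60S) subunit and 32 to the small (40S) subunit. The 53 include RPL7L1, a nucleolar relative of RPL7 that takes part in ribosome assembly. The remaining member was RPS19BP1, a nucleolar protein that binds RPS19 and is not itself a subunit. The labels describe 3 small spheroids, 3 large spheroids and 3 capsules, all of the same wild-type line. Every sample, capsules included, carries the same treatment label, which names liquid overlay culture with 5% Matrigel and trastuzumab, an antibody against ERBB2, and 96 h of incubation before RNA was taken. The medium was RPMI with 10% fetal bovine serum. The labels do not say whether replicates were separate cultures, so p-values measure only the spread between these samples, which may be technical.

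The 3 capsule libraries were matched to their samples by name. The names of the other 6 columns give no spheroid size. They fall into 2 sets of 3 by name, called here the L.O libraries (a, b and c) and the Sph libraries (a, b and c). Small and large spheroids were therefore not compared, and capsules were set against all 6 and against each set.

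A ribosome holds 1 copy of most of its proteins, and cells make these proteins in matched amounts. In mammals most of their mRNAs begin with a 5′ terminal oligopyrimidine tract (5′ TOP), a C at the start of transcription followed by a run of C and T, through which the TOR kinase and the RNA-binding protein LARP1 adjust their translation. Ribosome production is a large share of the work of a growing cell, and MYC and RNA polymerase I are among its drivers. A few subunits have a second gene, a paralog, whose product can take the place of the parent protein or has other tasks.

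The start sites of the paralogs and parents that the results turn on are shown where a promoter entry was available, to let their 5′ ends be compared. RPL7 and RPL39L had no entry, so RPL7L1 and RPL39 stand without their partners. RPS3 and RPS6, which are abundant members of the 40S subunit, are shown as well. The sequences are from RefSeq on GRCh38.p14, 5′ to 3′ on the strand of the gene, with 40 bases before the annotated start and 20 from it. Capitals mark the first 6 bases of the annotated transcript.
RPS3 (chr11:75399478-75399537, plus strand): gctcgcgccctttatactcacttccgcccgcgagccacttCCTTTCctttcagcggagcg
RPS6 (chr9:19380217-19380276, minus strand): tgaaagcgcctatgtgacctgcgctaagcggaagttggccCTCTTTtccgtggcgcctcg
RPS27 (chr1:153990722-153990781, plus strand): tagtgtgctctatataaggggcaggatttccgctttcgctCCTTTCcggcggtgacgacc
RPS27L (chr15:63157458-63157517, minus strand): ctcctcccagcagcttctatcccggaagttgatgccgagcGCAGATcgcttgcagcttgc
RPL22 (chr1:6199576-6199635, minus strand): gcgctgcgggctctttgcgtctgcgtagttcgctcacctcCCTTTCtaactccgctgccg
RPL22L1 (chr3:170870176-170870235, minus strand): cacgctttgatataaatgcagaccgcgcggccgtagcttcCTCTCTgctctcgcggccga
RPL36A (chrX:101390971-101391030, plus strand): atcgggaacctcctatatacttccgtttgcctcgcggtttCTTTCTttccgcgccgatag
RPL36AL (chr14:49620607-49620666, minus strand): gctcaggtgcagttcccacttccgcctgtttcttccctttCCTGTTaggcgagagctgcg
RPL26 (chr17:8383174-8383233, minus strand): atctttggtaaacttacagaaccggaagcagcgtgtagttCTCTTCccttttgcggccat
RPL26L1 (chr5:172958689-172958748, plus strand): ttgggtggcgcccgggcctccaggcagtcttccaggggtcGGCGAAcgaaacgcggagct
RPL39 (chrX:119791611-119791670, minus strand): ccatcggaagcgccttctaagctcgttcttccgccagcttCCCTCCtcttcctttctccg
RPL7L1 (chr6:42879576-42879635, plus strand): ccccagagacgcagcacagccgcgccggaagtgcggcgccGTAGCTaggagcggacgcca

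Each parent gene shown begins with a C followed by 5 pyrimidines, and so does the paralog RPL22L1. RPS27L, RPL36AL, RPL26L1 and RPL7L1 do not at the starts shown. The start shown for RPL26L1 lies inside the annotated span of that gene (chr5:172954094-172969771). The sequence at the outer end of RPL26L1 was not examined. Of the 86 members, 68 had a promoter entry, and 42 of these (61.8%) had such a start, against 819 of 27305 genes (3%). Motifs were searched on both strands from 250 bases before to 50 after the start, and the end of CCGGAAG can overlap the beginning of AAGATGGC. CCGGAAG, a core sequence of ETS family binding motifs, lay in 33.8% of member windows and 10.7% of all windows. AAGATGGC, the core of the YY1 motif, lay in 10.3% and 3.03%. TATAAA lay in 10.3% and 12%, and the E-box CACGTG in 5.88% and 7.43%. A match is a description of the letters, and a promoter window without one says nothing about the factor.

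The libraries held 13212665 to 13735221 counts in the capsules, 15525725 to 15988167 in the L.O set and 16605098 to 33263076 in the Sph set. Levels below are scaled CPM, counts per 1e6 counts after TMM scaling of the library totals. The Sph libraries stood apart. Across 16985 genes, Pearson's r of log2 levels between single libraries was 0.733 to 0.744 between capsules and Sph, 0.977 to 0.985 between capsules and L.O, and at least 0.993 within each set. The summed level of 13 genes abundant in MDA-MB-231 (among them CD44, AXL and CAV1) was 494 to 513 in the capsules, 693 to 753 in the L.O set and 8464 to 8659 in the Sph set. CD44, a surface receptor that this line makes in quantity, averaged 2.12, 4.98 and 1016 scaled CPM in these 3 sets. A list of 5 genes abundant in the embryonic kidney line HEK293 (NEFM, NEFL, LIN28B, CKB and CDKN2A) summed to 2306 to 2570, 1980 to 2253 and 34.9 to 38.5, and NEFL had 0 counts in every Sph library. CDKN2A averaged 505, 484 and 0.856 scaled CPM. The capsule and L.O libraries thus go against the MDA-MB-231 label, and the groups are named by their labels throughout. Against the Sph set, culture format and whatever else separates these libraries cannot be told apart. MALAT1, a nuclear noncoding RNA, averaged 451, 284 and 6350 scaled CPM, and its part in the results was not tested. Of markers of other cells, the fibroblast genes analysed (3 of 4 listed) summed to 1.06 to 1.54, 1.63 to 1.74 and 175 to 219.8 scaled CPM in capsule, L.O and Sph libraries. Endothelial genes (2 of 3) summed to 0.0707 to 0.294, 0.616 to 1.46 and 5.17 to 8.02, and luminal epithelial genes (3 of 4) to 89.2 to 100.2, 96.8 to 108 and 707 to 739.7.

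Ribosomal protein mRNA took its largest share of counts in the capsules and its smallest in the Sph libraries. The 86 members held 7.81%, 7.63% and 7.05% of counts in capsules 1, 2 and 3, which is 7.50% ± 0.395 (SD, n = 3). The L.O libraries had 6.17%, 5.90% and 6.30% (6.12% ± 0.204, n = 3), and the Sph libraries 2.11%, 1.78% and 2.03% (1.97% ± 0.174, n = 3). No capsule library overlapped either other set. Within a set most members were lowest in the same library: 71 of 86 in capsule 3, 61 in L.O b and 69 in Sph b. The same count was not made over all genes. The spread of a member between the libraries of a set was small, with a median coefficient of variation of 7.41% in the capsules, 6.36% in the L.O set and 7.6% in the Sph set. These medians cover the 84, 82 and 77 members left after a cut on low levels. The ratio of counts on RPL genes to counts on RPS genes was 1.45 to 1.47 in the capsules, 1.44 to 1.49 in the L.O set and 1.58 to 1.64 in the Sph set. The capsule and L.O ranges overlapped, and every Sph library was higher. In bulk samples, less RNA per cell and a different mix of cells cannot be told apart.

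**Figure D1:**
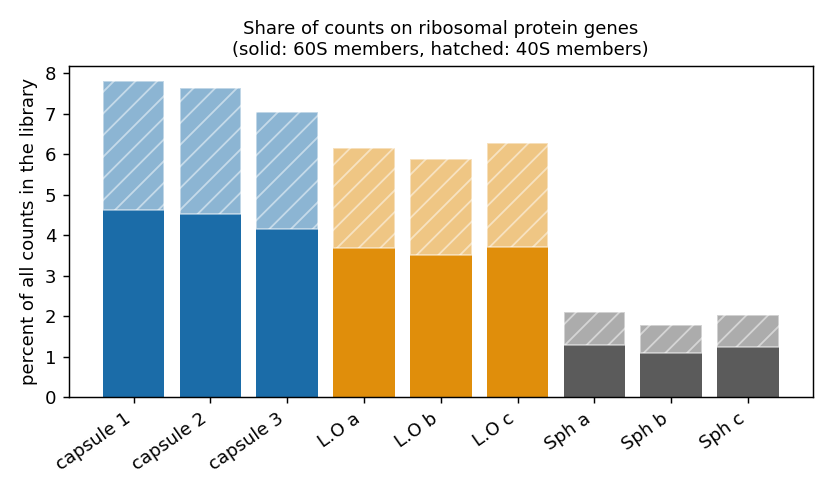
Percent of all counts that fell on ribosomal protein genes in each of the 9 libraries. Bars are stacked from 60S members (solid) and 40S members (hatched), and the capsule bars reach 7.05% to 7.81%, the L.O bars 5.90% to 6.30% and the Sph bars 1.78% to 2.11%.

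Against the L.O libraries, most proteins of both ribosomal subunits were higher in the capsules. With edgeR's quasi-likelihood test and a Benjamini-Hochberg adjusted p under 0.05, 75 members were higher and 2 lower of the 85 that could be tested. The background was high: 50.1% of 15919 genes were called, 24.7% higher and 25.4% lower. The median log2 fold change of the members was 0.51, against -0.01 over all genes, and ran from -1.05 to 1.09. In 73 members all capsule libraries lay above all L.O libraries (28.5% of genes did), and in 2 they lay below (28.6%). The 60S members counted 48 higher and 1 lower of 52, with a median log2 fold change of 0.47. The 40S members counted 27 higher and 1 lower of 32, with a median of 0.54. RPL10L, a testis paralog with 3, 9 and 7 counts in the capsules and 1 or 2 counts in each L.O library, was too low to test.

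Against the Sph libraries the differences were larger and wider. Of 85 members, 82 were higher in the capsules and 2 lower (edgeR, adjusted p under 0.05), where 86.1% of 16157 genes were called, 43.2% higher and 42.9% lower. In 82 members all capsule libraries lay above all Sph libraries (42.6% of genes did), and in 2 they lay below (44.1%). The median log2 fold change was 1.68, against 0.01 over all genes, and the members ran from -1.41 to 4.52. The 60S members had a median of 1.67 and the 40S members of 1.69. RPL39L was the member not past the threshold, at 16.3 ± 0.26 scaled CPM in the capsules and 17.0 ± 1.32 in the Sph set (SD, n = 3 each). Members past the threshold and higher in both comparisons numbered 73. That joint count was not taken over all genes, of which 24.7% were higher against L.O and 43.2% against Sph. RPS27L was lower in both. RPL7L1 was higher than in the L.O set and lower than in the Sph set, and RPL3L the reverse. The comparisons share the capsule libraries, so their agreement is no independent support.

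**Figure D2:**
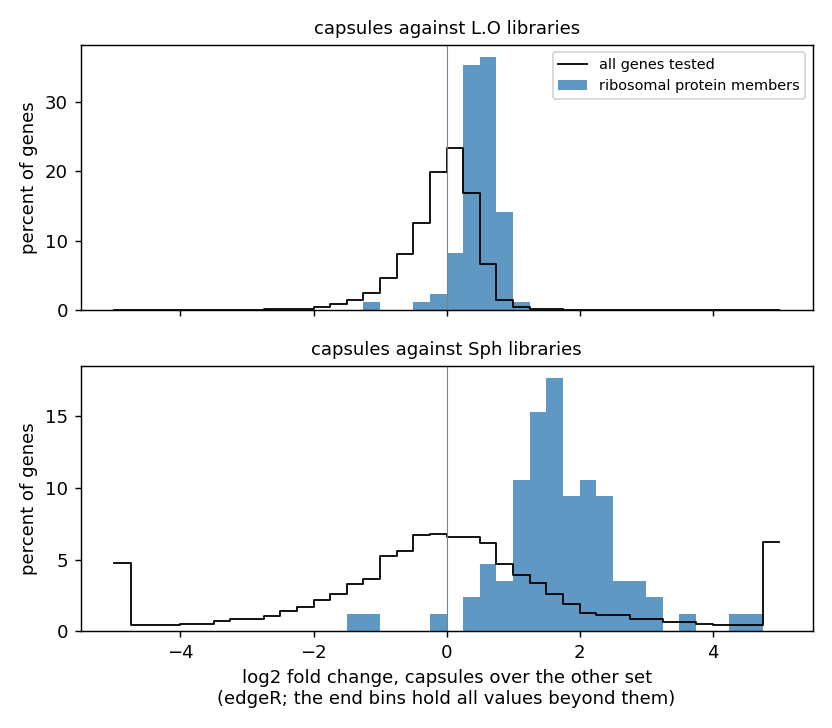
Distribution of log2 fold changes (capsules over the other set, in bins of the x axis) as a percent of genes, for the ribosomal protein members (bars) and all genes tested (line). The members' bars peak to the right of 0 in both panels, with medians of 0.51 against the L.O libraries and 1.68 against the Sph libraries, while all genes centre near 0.

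Taken over all 6 spheroid libraries at once, only 13 members passed the test, all higher in the capsules, and 60 had an unadjusted p under 0.05. Of all 16985 genes, 4929 had an unadjusted p under 0.05. Those past the threshold were 3.76% (2.3% higher and 1.47% lower). That split of 390 higher and 249 lower turned to 99 and 260 with library totals and to 1210 and 2780 with DESeq2. The median log2 fold change of the members was 0.95, against -0.06 over all genes. In 71 members every capsule library lay above all 6 others (14.1% of genes did), and in RPS27L every one lay below (12.5%). The L.O and Sph sets differ so much that the common biological coefficient of variation was 66% in this fit, against 7.33% with the L.O set alone and 7.32% with the Sph set alone. The 13 were RPL10, RPL10A, RPL14, RPL15, RPL22, RPL22L1, RPL23, RPL34, RPL37, RPS13, RPS18, RPS23 and RPS24. RPL15, for example, was at 543 ± 25.5 scaled CPM in the L.O set and 545 ± 10.7 in the Sph set, below 745 ± 49.1 in the capsules (SD, n = 3 each). No member passed when any 1 capsule library was left out: without capsules 1, 2 or 3, 38, 41 and 47 members had an unadjusted p under 0.05. Over all genes 2448, 2620 and 2507 did. With library totals in place of TMM scaling no member passed, and 31 members and 4561 of all genes did so unadjusted. Leaving out L.O b or L.O c left 5 or 8 members past the threshold, and leaving out Sph a, b or c left 3, 5 or 4.

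**Figure D3:**
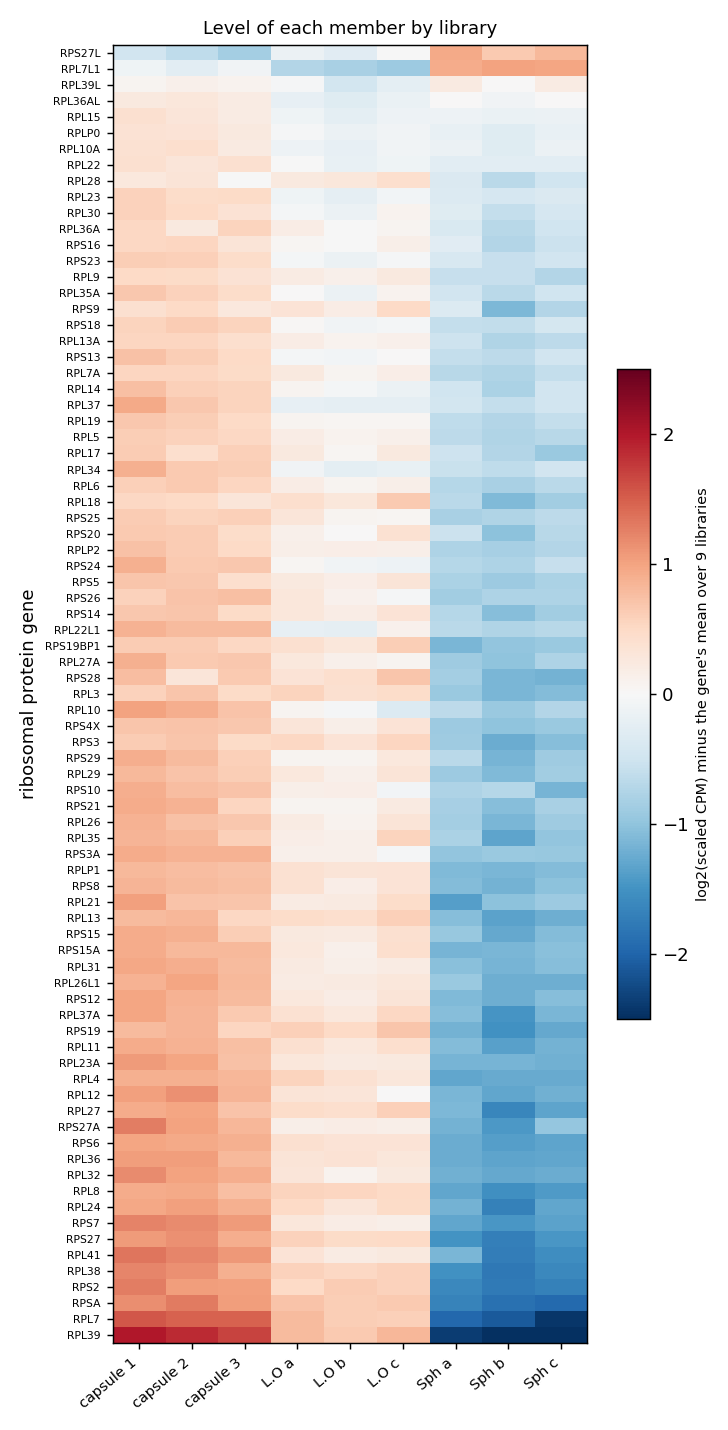
Level of 81 members in each library, as log2 scaled CPM minus the gene's mean over the 9 libraries (RPL3L and RPL10L, each at 0 counts in at least 1 Sph library, are left out, with a few members not reported here). Rows run from the lowest to the highest capsule-to-Sph difference: RPS27L and RPL7L1 at the top are highest (red) in the Sph set, and RPL7 and RPL39 at the bottom show the widest change.

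The stalk proteins, which form the lateral arm of the 60S subunit where elongation factors dock, were higher in the capsules than in either other set. RPLP0, the stalk base, was at 1227, 1203 and 1126 scaled CPM in the capsules, 939, 860.5 and 902 in the L.O set, and 837, 779 and 841 in the Sph set. The capsules were above both sets, by 1.31-fold over L.O (log2 0.39, SE 0.07, adjusted p = 0.000118) and by 1.48-fold over Sph (log2 0.57, SE 0.07, adjusted p = 1.29e-07). RPLP1, which pairs with RPLP2 on that base, was at 2020, 1967 and 1914 in the capsules, 1494, 1439 and 1458 in the L.O set, and 537, 519 and 544 in the Sph set. It rose 1.34-fold over L.O (log2 0.42, SE 0.07) and 3.78-fold over Sph (log2 1.92, SE 0.06, adjusted p = 7.17e-16). RPLP2 averaged 879.8 ± 71.5, 634 ± 5.71 and 333 ± 10.9 in the 3 sets (SD, n = 3 each), 1.38-fold above L.O and 2.71-fold above Sph.

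RPL5, RPL11, RPS6, RPL41 and RPS27A each passed the edgeR test against both sets, higher in the capsules. RPL5 and RPL11, which bind 5S rRNA and restrain MDM2 when ribosome assembly stalls, averaged 1445 ± 55.8 and 1340 ± 76.7 scaled CPM in the capsules against 1066 ± 33.2 and 950 ± 56.2 in the L.O set (SD, n = 3 each). Their capsule levels were 1.35-fold (log2 0.44, SE 0.07) and 1.41-fold (log2 0.49, SE 0.07) higher. In the Sph set RPL5 stood at 602 ± 18.5 and RPL11 at 321 ± 30.1. RPS6, the 40S protein phosphorylated by S6 kinase, was at 2855, 2758 and 2677 in the capsules, 1911, 1829 and 1835 in the L.O set and 611, 553 and 578 in the Sph set. No library overlapped, and the capsules were 1.48-fold above L.O (adjusted p = 1.88e-06) and 4.88-fold above Sph (adjusted p = 1.14e-16). RPL41, the shortest of the ribosomal proteins, was at 534, 492 and 446 in the capsules, 266, 244 and 251 in the L.O set, and 95.3, 63.7 and 71.6 in the Sph set. It was 1.93-fold above L.O and 6.55-fold above Sph. RPS27A, made as a fusion with ubiquitin, rose 1.85-fold over L.O, from 95.2 to 97.1 scaled CPM to 152 to 208.

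RPS4X, an X-linked 40S protein, averaged 2909 ± 30.9 in the capsules and 2151 ± 154 in the L.O set, 1.35-fold apart. RPSA, the 40S protein also known as the laminin receptor, averaged 542 ± 48.4 against 381 ± 15.1 (1.42-fold). RPL38, a 60S protein, averaged 852 ± 98.1 against 586 ± 15.4 (1.45-fold), and RPL13A 358 ± 17.1 against 278 ± 10.7 (1.28-fold). Each of these passed the edgeR test against both sets. The pseudogene RPL13AP5, recorded at a higher level than RPL13A, did not pass against L.O (log2 0.18, SE 0.08, adjusted p = 0.0849, edgeR). It passed against Sph (log2 0.96, SE 0.09). RPL10, placed late in 60S maturation, was at 724, 679.7 and 595 in the capsules, 378, 354 and 288 in the L.O set and 232, 192 and 217 in the Sph set. Its rise of 1.96-fold over L.O (log2 0.97, SE 0.09, adjusted p = 1.21e-07) was among the largest. RPL39, RPL41 and RPL22L1, described with their libraries in turn, were others, and so were RPS7 at 1.94-fold and RPL37 at 1.93-fold. Against Sph, RPL39 (log2 4.52), RPL3L (4.33, on 3 counts in the Sph set), RPL7 (3.67) and RPSA (3.02) were among the largest rises.

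Among the members tested, 8 did not pass between capsules and L.O. RPS3, which lies at the mRNA entry of the 40S subunit, was at 2937, 3064 and 2626 scaled CPM in the capsules and 2718, 2404 and 2769 in the L.O set. The libraries overlapped, and the difference did not pass (log2 0.13, SE 0.08, adjusted p = 0.192). RPS19, mutated in Diamond-Blackfan anaemia, gave log2 0.13 (SE 0.08, adjusted p = 0.202), with 1420, 1487 and 1198 against 1252, 1169 and 1328. RPL3, close to the peptidyl transferase centre, gave log2 0.12 (SE 0.07), RPS9 0.04 (SE 0.08), RPL18 -0.02 (SE 0.09), RPL28 -0.12 (SE 0.08) and RPS28 0.10 (SE 0.13). RPS19BP1 gave 0.15 (SE 0.08), at 121 to 131 in the capsules and 103 to 129 in the L.O set. All 8 of these were past the threshold against Sph, where RPS3 was 3.24-fold and RPS19 4.25-fold higher in the capsules. The calls for RPL39L, RPL36A, RPL9 and RPL13 against L.O were among those lost when a library was left out: RPL39L without any 1 capsule library or without L.O b, RPL36A without capsule 1, capsule 3 or L.O b, RPL9 without capsule 1 or L.O b, and RPL13 without capsule 1, capsule 2, L.O a or L.O b.

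Of the paralogs, RPL22L1, RPL26L1 and RPL36AL were higher in the capsules against both sets, and RPS27L, RPL7L1, RPL39L and RPL3L were not. RPS27L, a p53-induced paralog of RPS27, was at 22.4, 20.3 and 17.5 scaled CPM in the capsules, 28.2, 25.6 and 31 in the L.O set and 60.1, 49.4 and 55.1 in the Sph set. The capsules were lowest without overlap, at 0.708 times the L.O level (log2 -0.50, SE 0.11, adjusted p = 0.000667) and 0.376 times the Sph level (log2 -1.41, SE 0.10, adjusted p = 1.77e-10). Its parent RPS27 went the other way, with 60.3, 64 and 54.1 in the capsules, 43.2, 40.4 and 40.7 in the L.O set and 10.2, 8.87 and 10.5 in the Sph set. RPL7L1, a nucleolar relative of RPL7 that takes part in ribosome assembly, was at 202, 181 and 206 in the capsules, 132, 124 and 117 in the L.O set and 417, 441 and 432 in the Sph set. It rose 1.58-fold over L.O and was 0.468 times the Sph level. RPL7 averaged 141 ± 4.67, 79.3 ± 5.99 and 11.2 ± 1.79 in the 3 sets.

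RPL39 lines the exit tunnel of the 60S subunit. It was at 176, 161 and 143 scaled CPM in the capsules, 76.4, 69.2 and 78.8 in the L.O set and 8.5, 5.85 and 7.44 in the Sph set. The 3 sets did not overlap, and the capsules were 2.13-fold above L.O (adjusted p = 7.35e-09) and 23-fold above Sph (adjusted p = 2.3e-17). RPL39L, its paralog known from male germ cells, stayed between 11.2 and 17.9 scaled CPM in all 9 libraries. RPL22L1, which can replace RPL22 on the ribosome, was at 129, 122 and 122 in the capsules, 61.5, 60.5 and 75.7 in the L.O set and 44.3, 41.7 and 43.9 in the Sph set. Its parent RPL22 was at 268 ± 10.9, 193 ± 11.7 and 173 ± 0.986 (SD, n = 3 each). Both rose in the capsules against both sets.

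RPL36AL and RPL26L1 are near-identical to their parents in protein. RPL36AL averaged 197 ± 5.54, 142 ± 7.14 and 164 ± 5.83 scaled CPM in capsule, L.O and Sph libraries, and its parent RPL36A 12.4 ± 1.41, 9.6 ± 0.637 and 6.35 ± 0.709. The call of RPL36AL against Sph (log2 0.30, SE 0.07) turned to -0.01 with offsets for GC content and length. RPL26L1 averaged 67.1 ± 4.03, 42.8 ± 1.05 and 16.7 ± 1.99, and RPL26 816 ± 56.4, 559 ± 46.2 and 248 ± 26.5. RPL3L, a paralog of RPL3 known from striated muscle, had 15, 20 and 14 counts in the capsules, 37, 54 and 40 in the L.O set and 2, 0 and 1 in the Sph set. It was lower in the capsules than in the L.O set (log2 -1.05, SE 0.27, adjusted p = 0.00301). The 49 counts in the capsules and 3 in the Sph set give a ratio of 22.5, with an exact 95% interval of 7.27 to 113 that covers counting error only.

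The balance between each paralog and its parent was also compared within libraries, as the ratio of their recorded counts, which no scaling of the libraries changes. Processed pseudogenes, retrotransposed copies of near-identical sequence, number 61 for RPL7, 22 for RPL22, 14 for RPS27 and 14 for RPL39. RPL7L1 has 12, and RPS27L, RPL39L and RPL22L1 have 0. The part of reads shared with such copies, and of how each set was aligned, in these ratios was not tested. RPS27L to RPS27 was 0.371, 0.317 and 0.323 in the capsules, 0.653, 0.632 and 0.763 in the L.O set, and 5.87, 5.57 and 5.25 in the Sph set. RPL39L to RPL39 was 0.0914, 0.103 and 0.114, then 0.195, 0.161 and 0.164, then 2.11, 2.65 and 2.37. RPL7L1 to RPL7 was 1.38, 1.32 and 1.48, then 1.53, 1.62 and 1.55, then 32.6, 38.1 and 46.6. In these 3 pairs the capsules were lowest in every library and the Sph libraries had more counts on the paralog than on the parent. RPL22L1 to RPL22 ran the other way, at 0.469, 0.48 and 0.446, then 0.3, 0.333 and 0.394, then 0.258, 0.24 and 0.254.

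The log2 ratio differed between the 3 capsules and the 6 other libraries in 4 of 6 pairs with no library at 0, by a 2-sided exact permutation test. The test takes those 6 libraries as 1 exchangeable group, although the L.O and Sph sets differ widely. Each difference from the 6 is thus a mean over unlike sets. The capsules were lower by log2 -2.53 for RPS27L/RPS27, -2.64 for RPL39L/RPL39 and -2.48 for RPL7L1/RPL7, and higher by 0.67 for RPL22L1/RPL22. Each gave an exact p = 0.0238, the smallest that 3 against 6 allows, and 0.0357 after Benjamini-Hochberg adjustment over the 6 pairs. With either set alone 3 against 3 cannot go below 0.1. Against L.O the differences were -1.02, -0.75, -0.17 and 0.45, smaller than against Sph (-4.05, -4.53, -4.79 and 0.89). RPL26L1/RPL26 gave 0.20 (exact p = 0.0952) and RPL36AL/RPL36A -0.30 (exact p = 0.357), the latter 0.11 against L.O alone.

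**Figure D4:**
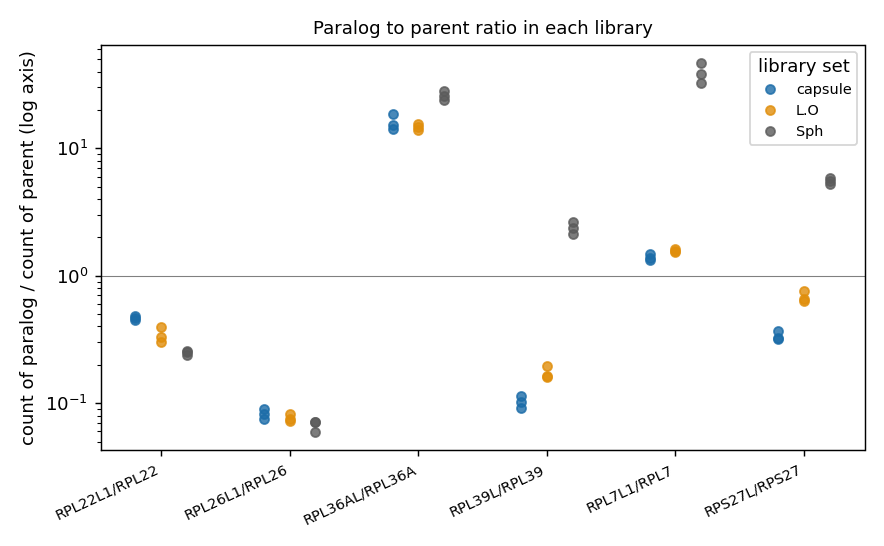
Ratio of paralog to parent counts in each library on a log axis, for 6 pairs, with 1 point per library of the capsule, L.O and Sph sets. RPS27L/RPS27, RPL39L/RPL39 and RPL7L1/RPL7 are lowest in the capsules and above 1 in every Sph library, while RPL22L1/RPL22 is highest in the capsules.

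Levels of different members were set side by side per coding kilobase, which is the scaled CPM divided by the length of the coding sequence in GENCODE release 29. Counts are per gene and can include untranslated ends, which this length leaves out, so the ranking is rough. RPL41, with 78 coding bases, averaged 490.2 scaled CPM in the capsules, below the members' medians of 619 to 737 there. The highest in the capsules included RPL8 at 7004, RPL41 at 6285, RPLP1 at 5701 and RPL27 at 4771, and RPS10 at 21 and RPL21 at 34 were the lowest parents. RPL8, a 60S protein beside the peptidyl transferase centre, was at 5620, 5682 and 4961 scaled CPM in the capsules, 4297, 4282 and 4121 in the L.O set and 1200, 1015 and 1103 in the Sph set. Members with more processed pseudogenes, retrotransposed copies with near-identical sequence, tended to have lower recorded levels. Over 77 members (paralogs and RPS19BP1 left out) Spearman's rho between that number and the level per coding kilobase was -0.47 in the capsules, -0.51 in the L.O set and -0.48 in the Sph set. The points share their libraries, and rho describes only these genes. RPL23A has 90 such copies, RPSA 73, RPL21 66 and RPL7 61. The pseudogene RPL13AP5 was recorded at 3499 ± 262 scaled CPM in the capsules, against 358 ± 17.1 for RPL13A itself, so levels of members with many copies are uncertain. Spearman's rank correlation between the number of pseudogenes and the log2 fold change was 0.33 against L.O and 0.10 against Sph over the same 77 members, and the part of pseudogene reads in the fold changes was not tested. Members with fewer than 10 pseudogenes counted 37 higher and 2 lower of 46 against L.O, with a median log2 fold change of 0.45, and 44 higher and 1 lower against Sph, with a median of 1.66. Members with 10 or more counted 38 higher and 0 lower of 39 against L.O (median 0.57), and 38 higher and 1 lower against Sph (median 1.68). Of all genes, 24.7% were higher and 25.4% lower against L.O, and 43.2% and 42.9% against Sph.

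**Figure D5:**
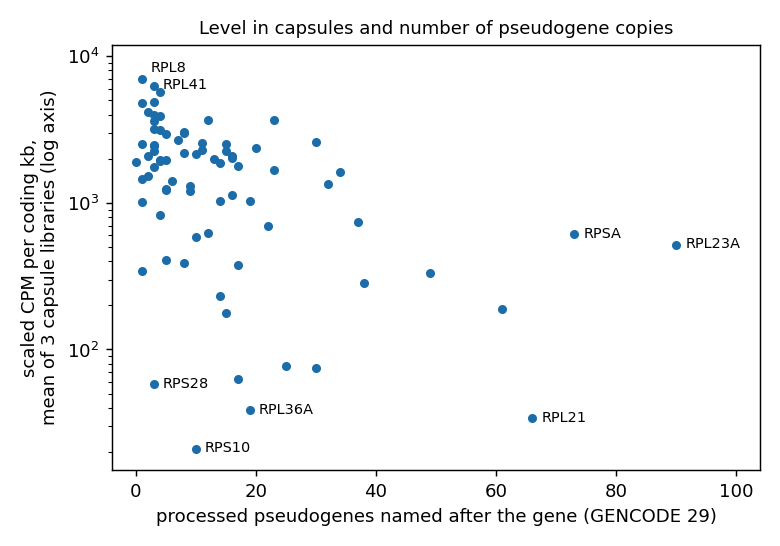
Level of 77 members per coding kilobase in the capsules (mean of 3 libraries, log axis) against the number of processed pseudogenes named after each. RPL8 and RPL41, with few copies, lie at 7004 and 6285, and RPL21, with 66 copies, at 34.

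Members with and without a 5′ TOP start at the annotated site gave much the same counts. The 42 with such a start counted 37 higher and 0 lower against L.O (median log2 fold change 0.52) and 42 higher against Sph (median 1.66). Shares over all genes were 24.7% higher and 25.4% lower against L.O, and 43.2% and 42.9% against Sph. The 25 tested members with an entry and no such start counted 22 higher and 1 lower (median 0.48) and 23 higher and 2 lower (median 1.68). The difference between these groups was not tested. The grouping rests on the exact annotated start base, so a start annotated a few bases off could put a member in the other group. The group without such a start also holds the paralogs RPS27L, RPL36AL, RPL26L1 and RPL7L1. These counts therefore do not compare TOP mRNAs with other mRNAs.

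Other genes of ribosome production rose with the members against L.O. Of 28 other 5′ TOP mRNAs, 22 were higher and 1 lower, with a median log2 fold change of 0.46, and against Sph 24 were higher and 3 lower (median 1.12). Over all genes 24.7% were higher and 25.4% lower against L.O, and 43.2% and 42.9% against Sph. NPM1, a nucleolar chaperone of assembly, was at 1111, 994 and 1077 scaled CPM in the capsules, 664, 577 and 559.7 in the L.O set and 426, 446 and 432 in the Sph set, 1.76-fold and 2.5-fold apart. EEF1A1, which brings tRNA to the ribosome, rose 1.57-fold over L.O and was 0.729 times the Sph level. EEF2, the translocation factor, did not pass against L.O (log2 -0.05, SE 0.08), a value that became 0.24 with GC and length offsets, and was 3.72-fold above Sph. PABPC1, the poly(A) binding protein, did not pass against L.O (log2 0.07, SE 0.07) and was 0.686 times the Sph level. FAU, a fusion gene that carries the ribosomal protein eS30, rose against L.O (log2 0.45, SE 0.07). RACK1, a 40S-bound scaffold, was 1.18-fold above L.O.

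Beside the lists that follow, the shares over all genes were 24.7% higher and 25.4% lower against L.O, and 43.2% and 42.9% against Sph. Ribosome assembly factors counted 23 higher and 0 lower of 24 against L.O (median 0.54), and 20 higher and 2 lower against Sph (median 1.20). RNA polymerase I and its factors counted 9 higher and 1 lower of 11 against L.O (median 0.43) and 8 higher and 3 lower against Sph (median 0.74). The proteins of the mitochondrial ribosome, a separate machine of 78 genes here, counted 60 higher and 1 lower against L.O (median 0.41) and 62 higher and 9 lower against Sph (median 0.69). MYC, which drives transcription of these genes, was at 144, 173 and 153 scaled CPM in the capsules, 85.3, 85 and 81.3 in the L.O set and 128, 126 and 118 in the Sph set. It rose 1.86-fold over L.O and 1.29-fold over Sph.

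Of 15 TOR pathway genes, 6 were higher and 3 lower against L.O, with a median log2 fold change of 0.14, where 24.7% of all genes were higher and 25.4% lower. Against Sph 7 were higher and 5 lower (median 0.08), near the shares over all genes of 43.2% and 42.9%. MTOR, the kinase, was at 192 ± 3.66 in the capsules and 189 ± 18.5 in the L.O set (SD, n = 3 each) and did not pass. EIF4EBP1, the translation repressor that TOR phosphorylates, rose 1.81-fold over L.O and 4.88-fold over Sph. RPS6KB1, the S6 kinase, rose 1.31-fold and 1.3-fold. LARP1 rose 1.19-fold over L.O and was 0.901 times the Sph level, a difference that changed sign to log2 0.13 with library totals. MDM2, which RPL5 and RPL11 bind, was 0.809 times the L.O level (adjusted p = 0.01, edgeR) with overlapping libraries, and 1.45-fold above Sph.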

How the data were processed

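The deposited table held whole-number counts of reads per gene for 17911 Entrez genes in 9 columns, with no normalization. The submitters' processing notes name hg38, featureCounts and limma, without versions or roles. The column names of the capsule and L.O libraries contain the word subread, the name of an aligner, and those of the Sph libraries do not. Whether the sets were aligned alike is not given, and its part in the differences from Sph was not tested. The annotation and strand setting are not given in the sources used here. Overlapping genes therefore cannot be separated, among them the readthrough genes RPL17-C18orf32, RPS10-NUDT3 and RPL36A-HNRNPH2. All counts entered edgeR 4.0.16 in R 4.3.3 (default filter on low counts, TMM scaling, quasi-likelihood test, Benjamini-Hochberg adjustment over all genes tested, threshold 0.05), with capsules against all 6 spheroid columns as the planned fit and against each set of 3, which were planned as alternatives and made results of their own after the data were seen. SE is the log2 fold change divided by the square root of F. Alternatives were RLE scaling, library totals, TMM without the members, DESeq2 1.42.0, no filter, GC and length offsets in 10 bins (length known for 95.6% of genes), and leaving out each library. Paralog ratios used exact permutation tests in Python 3.11.15 with scipy 1.17.1, with 1 count added as an alternative. No pair of libraries in a set was a duplicate: at least 1203 genes differed beyond counting noise in each pair (chi-square test). Levels rest on counts, and a gene at 0 allows up to 3 counts. Sequences and coordinates are RefSeq's, GRCh38.p14, for all 86 members (68 with a promoter).

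The members and gene lists were chosen with earlier results of these data known. Named genes were the paralog pairs, the stalk proteins, 12 members with known roles, the 5 highest per coding kilobase, the 6 largest changes in each direction past the threshold, and RPS19BP1. The members not past a threshold, those whose call was lost without a library, the 13 called against all spheroids, those with extreme pseudogene counts or levels, MALAT1 and RPL13AP5 were named after their values were seen. A few genes are not reported here by name.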

Additional observations from a re-analysis of the deposited data

How the results depend on the processing

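The calls in capsules against all 6 spheroid libraries depended on the processing. From 639 genes, they became 359 with library totals, 3990 with DESeq2, 7970 with the L.O columns only and 13909 with the Sph columns only, and ran from 0 to 604 when single libraries were left out. From 13 members, they became 8 with RLE scaling and 0 with library totals. With library totals, 31 members and 4561 of all genes had an unadjusted p under 0.05 (edgeR). Members called became 34 with DESeq2, 77 with the L.O columns only and 84 with the Sph columns only. They ran from 0 to 11 when single libraries were left out. The median log2 fold change of the members, 0.95, was 0.74 with GC and length offsets, 0.51 with the L.O columns only and 1.68 with the Sph columns only, and 0.82 to 1.09 when single libraries were left out. Against the L.O libraries the median of 0.51 became 0.36 with library totals and 0.37 with GC and length offsets, and against the Sph libraries the median of 1.68 became 1.95 and 1.29. Library totals moved the median of all genes to -0.16 against L.O and 0.29 against Sph, and the split of all calls against L.O from 3934 higher and 4036 lower to 2281 and 5848, while members counted 70 higher and 3 lower. Against Sph that split went from 6977 and 6932 to 8201 and 5722. Members called ran from 73 to 78 against L.O and stayed at 84 against Sph when single libraries were left out. Signs reversed for EEF2 against L.O (0.24), RPL36AL (-0.01) and RPL10A (-0.07) against Sph, all with GC and length offsets, for RPL39L (0.26) and LARP1 (0.13) against Sph with library totals, and for the ratio RPL36AL/RPL36A with the L.O columns only (0.11). The 4 paralog ratios past the threshold became 0 with either set only and 0 to 0 when single libraries were left out, where the smallest possible p is 0.1 and 0.0357 or 0.0714 before adjustment. In every other case the cause was not tested. No paired analysis was possible because the numbers in the L.O and Sph column names fit both a small and a large spheroid sample.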
